A study of Mus musculus with 2 samples.

Results

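TRBV31 is the only V gene of the mouse T cell receptor beta (TRB) locus that lies downstream of the constant genes, and it is written on the opposite strand to all others. Chains that use it were taken as every beta contig whose V call was TRBV31 in the T cell receptor sequences of CD4 single-positive (SP) thymocytes. There were 373 such chains among 9322 beta chains, 167 of 4141 in a library from wild-type (WT) mice of strain C57BL/6J and 206 of 5181 in a library from Btla-/- mice, whose strain is given as C57BL/6-Btla KO. Btla encodes an inhibitory receptor of lymphocytes. Mice of both genotypes were 8 to 12 weeks old, and the cells of both libraries were isolated from thymocyte suspensions with a negative selection kit for naive CD4 T cells. The number of mice behind a library is not given, and each genotype was 1 library. All intervals below therefore cover counting error within a library only, no test between genotypes was possible, and no p-value is given. The files hold receptor contigs alone, so neither the cell type nor the genotype could be checked against marker genes.

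A beta chain gene is assembled in the thymus when the recombinase joins a D segment to a J segment and then a V gene to the joined DJ. Recombination signal sequences, each a conserved heptamer and nonamer separated by a spacer, mark the ends that are cut. Most V genes stand upstream in the same orientation as D and J, and their joining deletes the DNA in between. TRBV31, also called Vbeta14, faces the other way, so its joining turns the intervening DNA around and keeps it on the chromosome. The beta chain is tested before the alpha chain (TRA) is rearranged, and allelic exclusion leaves most T cells with 1 productive beta chain.

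The germline end of TRBV31 and its signal are shown first because the results on CDR3 (the hypervariable loop formed over the V-D-J joint) are read against them. In GRCm38 the gene (ENSMUSG00000076499.3) spans chromosome 6 from 41557691 to 41558452 on the minus strand. Of the 35 genes named TRBV in the annotation, 34 lay on the plus strand and TRBV31 was the 1 on the minus strand. It started 9338 bases beyond the end of TRBC2, a constant gene. Its last coding base, the base before the signal, lay 15516 bases beyond the D segment TRBD2 and 24480 bases beyond TRBD1, whereas TRBV30, the nearest V gene upstream, ended 251210 bases before TRBD1. The annotated gene ended 2 bases further, inside the heptamer. In the first line below, the capitals mark the heptamer and the nonamer, separated by a spacer of 23 bases, and each differed from its consensus at 1 base. The second line is the germline part of the CDR3, from the codon of the conserved cysteine to the last V base.
TRBV31 end and signal, chr6:41557654-41557722, minus strand: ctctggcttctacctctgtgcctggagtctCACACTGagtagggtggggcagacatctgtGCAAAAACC
TRBV31 germline CDR3 start, chr6:41557693-41557706, minus strand: TGTGCCTGGAGTCT
TRBD1, chr6:41533201-41533212, plus strand: gggacagggggc
TRBD2, chr6:41542163-41542176, plus strand: gggactgggggggc

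The following CDR3 nucleotide sequences show what was made from that end. Capitals mark the bases that match the germline TRBV31 from the start without a break, and the lower case that follows holds added bases, D and J. The most frequent sequence of each library (in Btla-/- cells 1 of 11 found in 2 cells each) is shown with 1 of the shortest and 1 of the longest, and the last pair gave the only CDR3 protein found in both libraries and was chosen after its values were seen.
WT, most frequent, 4 cells, TRBJ1-1: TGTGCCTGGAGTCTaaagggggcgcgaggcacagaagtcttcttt
WT, shortest, TRBJ1-1: TGTGCCTGGAcagagacagaagtcttcttt
WT, longest, TRBJ2-1: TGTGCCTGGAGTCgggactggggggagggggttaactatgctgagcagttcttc
Btla-/-, most frequent, 2 cells, TRBJ1-2: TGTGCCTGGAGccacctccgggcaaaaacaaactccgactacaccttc
Btla-/-, shortest, TRBJ2-1: TGTGCCTtctatgctgagcagttcttc
Btla-/-, longest, TRBJ2-1: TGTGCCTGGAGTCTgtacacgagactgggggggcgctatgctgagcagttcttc
WT, protein found in both libraries, TRBJ2-1: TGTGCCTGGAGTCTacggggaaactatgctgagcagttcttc
Btla-/-, the same protein, TRBJ2-1: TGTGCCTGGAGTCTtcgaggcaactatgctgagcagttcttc

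The libraries held 4040 WT and 5077 Btla-/- cells, with 6003 and 7101 contigs from 26700294 and 22026825 reads. A beta chain was found in 4009 and 5014 cells and 2 beta chains in 132 and 167 of them. Transcripts were counted by unique molecular identifiers (UMIs), 80347 and 75456 in all. Beta chains held 72650 and 69417 of them, and the 1862 and 1920 alpha contigs held the rest. The libraries shared 30 cell barcodes, and 1 TRBV31 chain in each library stood on one of them. No cell held 2 TRBV31 chains, so chains and cells are the same number throughout. A feature found in no TRBV31 chain could still belong to 1.80% of the WT and 1.46% of the Btla-/- chains, the share that 3 counts would give.

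TRBV31 took nearly the same share of beta chains in both libraries. It was used by 4.03% of WT beta chains (95% exact interval 3.45 to 4.68) and by 3.98% of Btla-/- beta chains (3.46 to 4.54). The intervals overlapped for nearly their whole length. By UMIs the share was 4.79% (4.64 to 4.95) in WT and 4.33% (4.18 to 4.48) in Btla-/- cells, above the share by chains in each library. These 2 intervals lay apart, but the UMIs of 1 chain are not independent, so that they are too narrow, and the difference between the libraries was not tested. Among 22 V calls, TRBV31 ranked 15 by its mean share. TRBV13-3, next above it, took 4.54% and 3.69% in WT and Btla-/- cells, and TRBV26, next below, took 3.31% and 4.0%. By share of chains, none of these 3 genes had intervals apart between the libraries, and of the 21 genes with at least 1% of the chains in a library, 2 had (9.52%). In cells with exactly 1 alpha and 1 beta chain the TRBV31 share was 4.69% in WT and 4.71% in Btla-/- cells, higher than over all cells in both.

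**Figure D1:**
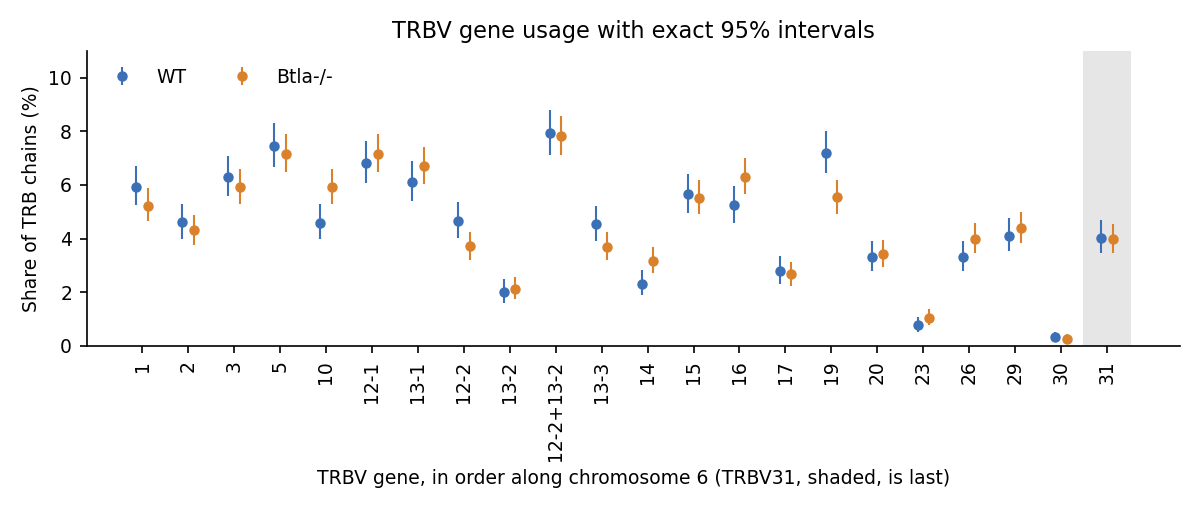
Share of TRB chains (%) for each TRBV gene in the WT and Btla-/- library, ordered along chromosome 6, with exact 95% intervals as bars. TRBV31, shaded at the right, lay at 4.03% and 3.98%, in the lower part of the range of genes.

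The transcribed V region of TRBV31 was the germline one in every chain. Over the 270 bases from framework 1 to framework 3, all 167 WT and all 206 Btla-/- chains equalled the reference and each other. The contigs are consensus sequences per cell, and this stretch ends before the CDR3. Identity over it checks the V call and says nothing of the joint.

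TRBV31 was joined to both J clusters, in proportions like those of genes joined by deletion. A J segment of the TRBJ2 cluster, which lies with TRBC2, was used by 59.9% of WT TRBV31 chains (52.0 to 67.4) against 60.2% of other beta chains. In the Btla-/- library it was used by 56.3% (49.2 to 63.2) against 60.0% (58.6 to 61.4). The TRBV31 and other intervals overlapped in both libraries, while 10% of the V genes in WT and 25% in Btla-/- cells had a TRBJ2 share apart from that of the rest. The order depended on which cells were counted. In cells with exactly 1 alpha and 1 beta chain, TRBJ2 made up 66.7% of WT TRBV31 chains against 59.2% of other chains and 71.0% against 61.6% in the Btla-/- library. These cells held 66 WT and 69 Btla-/- TRBV31 chains, and the interval of the Btla-/- share was 58.8 to 81.3.

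The constant gene followed the J cluster without exception. TRBC2 was called in 99 WT and 116 Btla-/- TRBV31 chains and TRBC1 in 67 and 89, with 1 chain of each library left without a call. None of the 167 and 206 chains carried the constant gene of the other cluster, as was also the case for all other beta chains.

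Single J segments differed little from the rest of the repertoire. TRBJ2-7 was the most used partner in both libraries, in 22 WT chains (13.2%, 8.44 to 19.3; 16% of other chains) and in 38 Btla-/- chains (18.4%, 13.4 to 24.4; 14.7% of other chains). In WT cells TRBJ2-1 and TRBJ2-5 followed with 19 chains each (11.4%). In Btla-/- cells TRBJ1-2 followed with 20 chains (9.71%) and TRBJ2-5 with 19 (9.22%). All 12 J segments were found with TRBV31 in both libraries, the fewest being 5 chains with TRBJ1-5 in WT cells.

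That same segment, named here after its values were seen, was the 1 of 12 whose share in TRBV31 chains lay apart from its share in other chains, and only in the Btla-/- library. TRBJ1-5 was used by 17 of the 206 Btla-/- TRBV31 chains (8.25%, 4.88 to 12.9) against 3.64% of other chains (3.14 to 4.20). In the WT library it was used by 2.99% (0.979 to 6.85) against 3.42%, below the rest instead of above it, and none of the 12 segments lay apart. Over all pairs of a V gene and a J segment, 5.83% in WT and 6.25% in Btla-/- cells lay apart in the same way, so that 1 of 12 is near the background. By total variation distance (the share of chains that would have to change J segment), averaged over both libraries, the J usage of TRBV31 lay nearest to TRBV13-1 (0.0923 in WT, 0.121 in Btla-/- cells), then TRBV12-2 (0.105 and 0.121), then the joint call TRBV12-2+TRBV13-2 (0.0922 and 0.145) among 19 genes. In WT cells alone the joint call was the nearest, and TRBV12-2 was not among the 3 nearest. The distance rises with fewer chains per gene, so the order is a description only.

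**Figure D2:**
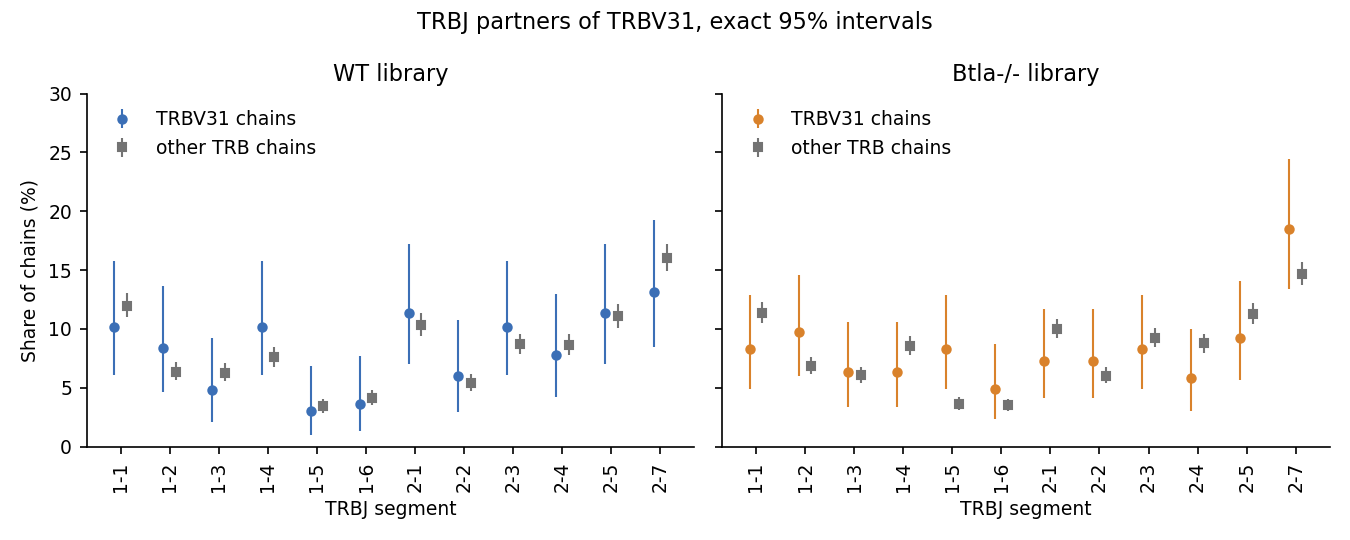
Share of chains (%) with each of the 12 TRBJ segments, for TRBV31 chains (circles) and other TRB chains (squares) of the WT library (left) and the Btla-/- library (right), with exact 95% intervals. The bars overlap for every segment but TRBJ1-5 in the Btla-/- library, at 8.25% against 3.64%.

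D segments were called in a minority of chains. A D call was present in 47 of 167 WT TRBV31 chains (28.1%, 21.5 to 35.6; 23.3% of other chains) and in 51 of 206 Btla-/- chains (24.8%, 19.0 to 31.2; 22.7%). TRBD2 made up 13 of the 47 calls (27.7%, other chains 28.9%) and 16 of the 51 (31.4%, other chains 30.7%). Calls of TRBV31 chains were thus more often TRBD1 than TRBD2 in both libraries, as were those of the rest. Among D calls with a TRBJ2 segment alone, TRBD2 made up 12 of 27 in WT TRBV31 chains (44.4%, 25.5 to 64.7; other chains 45.2%). In Btla-/- TRBV31 chains it made up 16 of 27 (59.3%, 38.8 to 77.6; other chains 48.9%). TRBD1 was called with a TRBJ2 segment in 15 WT and 11 Btla-/- chains and with a TRBJ1 segment in 19 and 24. TRBD2 lies downstream of the TRBJ1 cluster, and a TRBD2 call with a TRBJ1 segment was found in 1 WT and no Btla-/- TRBV31 chain, beside 2 and 1 among the other chains. Both D segments are short and rich in G, as printed above, so a call can rest on few bases.

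The V end of TRBV31 was trimmed less than that of most other genes. All 14 germline CDR3 bases were kept in 64 of 167 WT chains (38.3%, 30.9 to 46.2) and in 78 of 206 Btla-/- chains (37.9%, 31.2 to 44.9). In other beta chains the whole germline end was kept in 24.3% (23 to 25.7) and 24.3% (23 to 25.5), so the intervals lay apart in both libraries. Genes differed widely in this measure, and 78.9% of 19 genes in WT and 68.4% in Btla-/- cells lay apart from the rest in one direction or the other. TRBV31 ranked 2 in WT and 3 in Btla-/- cells by the share kept whole. By the mean number of germline V bases lost, fewest first, it ranked 2 of 19 genes in WT and 5 of 19 in Btla-/- cells.

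On average a WT TRBV31 chain lost 1.60 germline V bases (SD 1.76, n = 167 chains) against 2.59 in other chains, a difference of -0.99 (95% interval -1.27 to -0.714). A Btla-/- chain lost 1.86 (SD 2.09, n = 206 chains) against 2.59, a difference of -0.729 (-1.02 to -0.437). The J ends did not share this pattern. J segments lost 2.62 bases in WT TRBV31 chains and 2.62 in other chains, and 2.83 against 2.66 in Btla-/- cells. Between the V and J bases stood 11.1 bases in TRBV31 chains of either library, against 10.4 in other WT and 10.7 in other Btla-/- chains. The difference was 0.713 (0.147 to 1.28) in WT and 0.406 (-0.147 to 0.958) in Btla-/- cells, where the interval includes 0.

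The numbers of germline bases counted as kept were uneven and alike in the libraries. After the whole end, the most frequent were 13 kept bases, in 38 WT (22.8%) and 36 Btla-/- chains (17.5%), and 11 kept bases, in 35 (21%) and 46 (22.3%). The step between them, 12 bases, was found in 9 and 13 chains, and 9 bases in 13 and 11. The shortest Btla-/- sequence above kept 7, and the fewest kept by any chain were 6 in WT and 4 in Btla-/- cells. An added base that happens to match the germline is counted as kept. The same count was used for the other genes, but how often such matches arose was not compared between genes.

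When the V end was whole, the next base was most often A, the first base of a palindrome of that end. A stood there in 48 of 64 WT chains (75%, 62.6 to 85.0) and in 56 of 78 Btla-/- chains (71.8%, 60.5 to 81.4). The palindrome went on for a second base, AG, in 27 (42.2%, 29.9 to 55.2) and 39 (50.0%, 38.5 to 61.5). In other beta chains with a whole V end, the first palindromic base of their own end followed in 53.5% (50.2 to 56.8) and 51.8% (48.9 to 54.8), and 2 such bases in 23.9% (21.2 to 26.8) and 22.7% (20.3 to 25.2). TRBV31 intervals lay above these in both libraries, a comparison chosen after its values were seen. The other genes were pooled here, and how many single genes lie apart from the rest in this measure was not counted. Palindromic bases are known to arise when the hairpin that seals a cut coding end is opened off its tip. D segments begin with G, so a G at or after the joint can also come from D.

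The germline end gave TRBV31 a CDR3 start of its own. Cysteine, alanine and tryptophan opened the CDR3 in 164 of 167 WT (98.2%, 94.8 to 99.6) and 195 of 206 Btla-/- chains (94.7%, 90.6 to 97.3), and in no other beta chain of either library. Other beta chains most often opened with cysteine, alanine and serine, in 88.5% of WT and 89.1% of Btla-/- chains. Tryptophan followed by serine as the next residue stood in 131 WT (78.4%, 71.4 to 84.4) and 152 Btla-/- TRBV31 chains (73.8%, 67.2 to 79.7). The printed germline start encodes these residues.

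Trimming was visible in the residue after serine. Leucine stood there in 70 of the 131 WT chains (53.4%, 44.5 to 62.2) and in 82 of the 152 Btla-/- chains (53.9%, 45.7 to 62.1). The last 2 germline bases, CT, make a leucine codon whatever base follows, and just 6 of the 70 and 4 of the 82 leucines stood in chains that had not kept the whole end. Proline followed at 18.3% and 18.4% and arginine at 14.5% and 9.21%, and a proline codon or the arginine codons that begin with C can keep the C of the germline end but not its T. Arginine stood in place of that serine in 10.2% of WT and 10.7% of Btla-/- chains, and other residues there were not counted.

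TRBV31 CDR3s were a little shorter than those of other beta chains. The mean length was 14 amino acids in WT (SD 1.41, n = 167 chains, range 10 to 18) against 14.2 (SD 1.52), a difference of -0.169 with an interval of -0.389 to 0.0505 that includes 0. In Btla-/- cells it was 13.8 (SD 1.64, n = 206 chains, range 9 to 18) against 14.3 (SD 1.51), a difference of -0.445 (-0.673 to -0.216). The intervals of the means lay apart in the Btla-/- library alone, as was so for 40% of 20 genes there and 35% in WT cells. TRBV31 ranked 13 of 20 by mean length in WT and 19 of 20 in Btla-/- cells.

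The shift in the Btla-/- library lay at the short side. CDR3s of 12 or fewer amino acids made up 20.4% of Btla-/- TRBV31 chains (15.1 to 26.5) against 11.3% of other chains (10.5 to 12.3), whereas in WT cells they made up 14.4% (9.43 to 20.6) against 12.8% (11.8 to 13.9). CDR3s of 16 or more were fewer than in other chains in both, at 13.8% against 18.3% in WT and 14.6% against 19.6% in Btla-/- cells, with overlapping intervals. The most frequent length was 14 in WT cells (34.1%, 27.0 to 41.9) and 15 in Btla-/- cells (24.3%). The TRBV31 interval of the share of 12 or fewer overlapped between the genotypes.

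The germline V part of the CDR3 was short in this gene. TRBV31 contributes 14 CDR3 bases. The 19 other single genes with a germline match, whatever their share of chains, contribute 14 to 17, with 2 of them at 14. TRBV31 chains kept 12.4 V bases (SD 1.76) in WT and 12.1 (SD 2.09) in Btla-/- cells, against 13.7 in other chains of each library. They therefore held fewer V bases in the CDR3 although fewer had been removed.

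**Figure D3:**
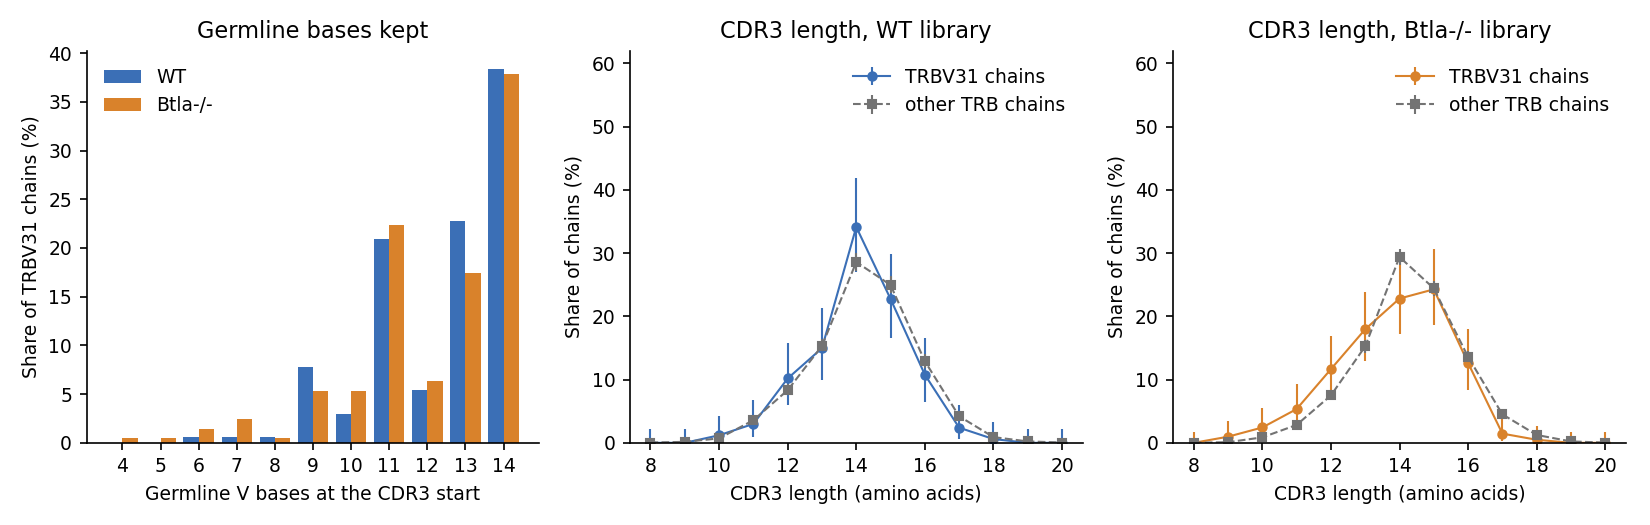
Left, share of TRBV31 chains (%) by the number of germline V bases at the CDR3 start in the WT and Btla-/- libraries, with the highest bars at 14, the whole end. Middle and right, share of chains (%) by CDR3 length in amino acids for TRBV31 (circles) and other TRB chains (squares) of each library with exact 95% intervals. The Btla-/- TRBV31 line lies above the other from 9 to 13.

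Nearly every TRBV31 chain was met once. The 167 WT chains had 159 distinct CDR3 nucleotide sequences and the 206 Btla-/- chains 195. Sequences found in more than 1 cell numbered 6 and 11 and covered 14 chains (8.38%, 4.66 to 13.7) and 22 chains (10.7%, 6.81 to 15.7), near the 6.72% and 8.60% of other beta chains. The WT sequence found in 4 cells was the most frequent, and none of these cells had an alpha chain that could be compared. Of the repeated sequences, 3 in each library had an alpha chain in at least 2 cells, and in all of these the cells shared an alpha chain. No nucleotide sequence was found in both libraries, and the 1 shared protein was made by the different nucleotides printed above, with 8 UMIs in the WT and 6 in the Btla-/- cell.

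An alpha chain was recovered somewhat more often beside TRBV31 than beside other V genes. It was present for 83 of 167 WT TRBV31 chains (49.7%, 41.9 to 57.5) against 43.3% of other beta chains (41.8 to 44.9), and for 91 of 206 Btla-/- chains (44.2%, 37.3 to 51.2) against 36.4% (35.1 to 37.8). TRBV31 ranked 1 of 20 genes in both libraries. The gene ranked next, not the same in each library, stood at 49.4% in WT and 42.2% in Btla-/- cells. TRBV31 intervals overlapped those of the rest, as did those of all 20 genes in each library (0% apart in WT and 0% in Btla-/- cells). A minimum of 3 UMIs, set for alpha and beta contigs alike, lowered the shares. They fell to 34.8% against 30.3% in WT and 27.2% against 20.2% in Btla-/- cells. In cells with 1 beta chain they were 45.8% against 39.5% in WT and 39.2% against 32.1% in Btla-/- cells.

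Transcript number did not order these shares alike in both libraries. For beta chains with 1 to 5 UMIs an alpha chain was present beside 9 of 14 WT TRBV31 chains (64.3%, 35.1 to 87.2; other chains 43.0%) but 9 of 29 Btla-/- chains (31%, 15.3 to 50.8; other chains 37.2%). With 6 to 15 UMIs it was 53.0% against 45.5% and 50.0% against 38.3%, the latter with intervals apart, and with 16 or more 44.8% against 41.0% and 39.3% against 32.4%. TRBV31 lay above the other chains in 5 of these 6 comparisons, which were chosen after the data were seen.

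The alpha partners of TRBV31 were spread over the locus like those of other beta chains. The 83 WT and 91 Btla-/- cells held 90 and 97 alpha chains from 16 and 14 TRAV subgroups and 36 and 35 TRAJ segments. TRAV6 was the most frequent in WT cells with 15 chains (16.7%, 9.64 to 26.0; 15.9% beside other beta chains), followed by TRAV7 with 14 (15.6%; 12.5%) and TRAV12 with 10 (11.1%; 11%). TRAV12 led in Btla-/- cells with 17 chains (17.5%, 10.6 to 26.6; 10.7%), followed by TRAV6 with 15 (15.5%; 15.5%) and TRAV4 with 11 (11.3%; 8.07%).

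None of the 15 TRAV subgroups compared in either library, and none of the 40 WT and 39 Btla-/- TRAJ segments compared, had a share beside TRBV31 apart from that beside the other beta chains. Over all pairs of a TRBV gene and a TRAV subgroup, 0.333% in WT and 0.667% in Btla-/- cells lay apart, and over all pairs with a TRAJ segment 0.25% and 0.513%. With 90 and 97 chains the intervals were wide, and a difference of the size of that for TRAV12 in Btla-/- cells could not be told from counting error. The segments TRAJ1 to TRAJ30, which lie at the constant gene end of the TRAJ cluster, made up 37.8% of WT (27.8 to 48.6) and 51.5% of Btla-/- alpha chains beside TRBV31 (41.2 to 61.8), against 48.9% (46.5 to 51.3) and 58.0% (55.7 to 60.3) beside other beta chains, with overlapping intervals within each library.

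TRBV31 was found beside a second beta chain about as often as other V genes were. A further beta chain was present for 12 of 167 WT TRBV31 chains (7.19%, 3.77 to 12.2) against 6.34% of other beta chains and for 17 of 206 Btla-/- chains (8.25%, 4.88 to 12.9) against 6.37%. The intervals overlapped in both libraries, and 5% of V genes in WT and 0% in Btla-/- cells lay apart. TRBV31 ranked 7 and 2 of 20 genes. No cell held more than 2 beta chains, and none of these 29 cells stood on a barcode found in both libraries. A droplet with 2 cells also gives 2 beta chains, and its part in these cells was not tested.

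In these cells the TRBV31 chain held fewer UMIs than its partner more often than it held more. It was the lower in 8 of 12 WT cells and in 10 of 17 Btla-/- cells, with 2 ties in the latter, or in 18 of 27 untied cells (66.7%, 46.0 to 83.5, an interval that includes an even split). The median TRBV31 count was 7.5 UMIs (range 3 to 35) in WT and 8 (2 to 21) in Btla-/- cells, against partner medians of 12.5 (5 to 23) and 9 (4 to 72). TRBV31 chains that stood alone in a cell had medians of 16 and 12. TRBV31 had fewer UMIs than its partner in a share of untied cells that ranked 6 of 21 genes in WT and 3 of 22, tied with 1 other gene, in Btla-/- cells. By reads the balance was nearly even, with TRBV31 the lower in 6 of 12 WT and 7 of 17 Btla-/- cells. Over all chains, a UMI was read a median of 471 times for TRBV31 against 332 for other chains in WT cells. In Btla-/- cells it was 399 against 291, so read counts weigh TRBV31 more than UMI counts do.

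By difference in UMIs, the widest gap was in a Btla-/- cell with 13 TRBV31 UMIs beside 72 of a TRBV5 chain, and the widest in the other direction a WT cell with 35 TRBV31 UMIs beside 17 of a TRBV13-1 chain. By ratio, the widest in that direction was a Btla-/- cell with 10 TRBV31 UMIs beside 4 of a TRBV12-2+TRBV13-2 chain. These 3 cells were chosen after their values were seen. The partner chains came from 15 V calls, most often TRBV5 in 5 cells and the joint call TRBV12-2+TRBV13-2 in 4. An alpha chain was present in all 12 and 17 cells, as in all 120 and 150 other cells with 2 beta chains. A cell with 2 beta chains and no alpha chain was absent from the deposited contigs of both libraries, although most cells had no alpha chain. The deposited contigs passed a cell filter, whose part in this was not tested. In WT cells the TRBV31 chain used TRBJ1 in 2 and TRBJ2 in 10 of the cells, and in Btla-/- cells in 10 and 7.

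**Figure D4:**
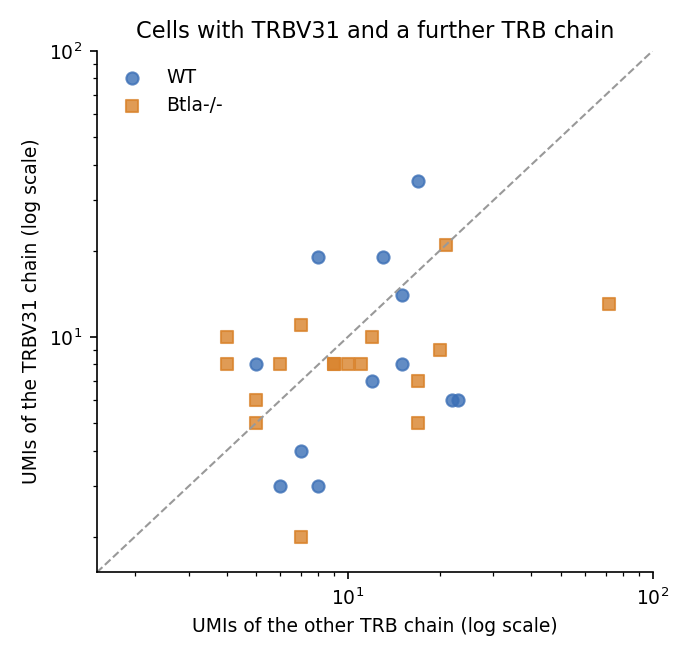
UMIs of the TRBV31 chain (vertical, log scale) against UMIs of the other TRB chain (horizontal, log scale) in each cell with both, for 12 WT cells (circles) and 17 Btla-/- cells (squares). Equal counts lie on the dashed line, and 18 cells lie below it, 9 above and 2 on it.

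TRBV31 chains were deeply covered. The median was 16 UMIs (95% interval 14 to 18, quartiles 11.5 and 23.5, maximum 153) in WT against 13 (13 to 13) in other beta chains, and 12 (10 to 13, quartiles 8 and 17, maximum 107) in Btla-/- cells against 10 (10 to 10). The intervals lay apart in WT cells and met in Btla-/- cells, and 50% of V genes in WT and 50% in Btla-/- cells lay apart. TRBV31 ranked 4 of 20 in both, in Btla-/- cells together with 4 other genes at the same median. At least 3 UMIs stood behind 98.2% of WT and 98.1% of Btla-/- TRBV31 chains.

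Reads set TRBV31 further apart than UMIs did. A TRBV31 chain had a median of 7079 reads in WT and 4289.5 in Btla-/- cells, against 4068 and 2843 in other beta chains. Each UMI was read a median of 471 times in WT TRBV31 chains (436 to 485) against 332 (328 to 337), and 399 times (372 to 411) against 291 (289 to 294) in Btla-/- cells. This was the highest of the 20 genes in both libraries. Genes differed widely in it, with 70% in WT and 65% in Btla-/- cells apart from the rest. Reads per UMI counts copies of 1 tagged transcript made and sequenced, so a read count weighs TRBV31 more than a UMI count does.

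**Figure D5:**
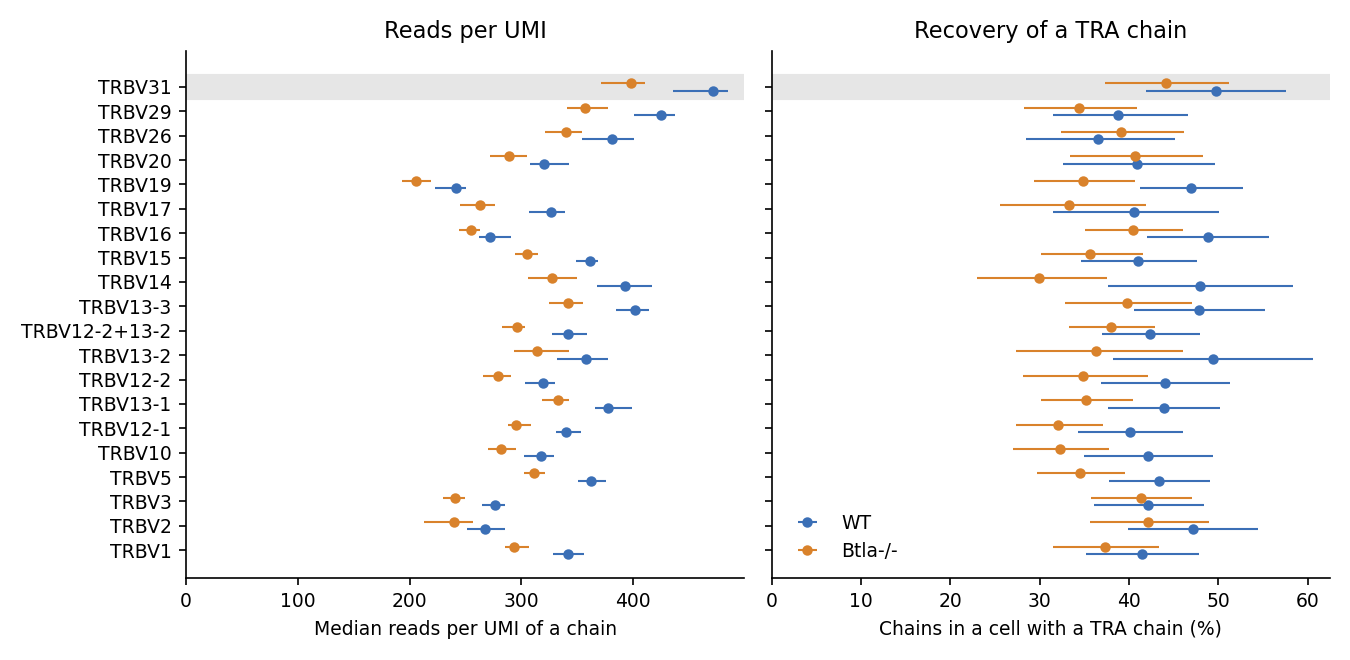
Median reads per UMI of a chain with its 95% interval (left) and share of chains in a cell with a TRA chain with exact 95% interval (%) (right), for 20 TRBV genes in order along chromosome 6 in the WT and Btla-/- libraries. TRBV31, shaded at the top, had the highest median reads per UMI in both libraries, 471 and 399, and the highest TRA share, 49.7% and 44.2%, with wide intervals.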

How the data were processed

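Productive T cell receptor contigs of called cells were analysed from 1 WT and 1 Btla-/- library of CD4 SP thymocytes. The authors assembled them with Cell Ranger 7.2.0 against a GRCm38 V(D)J reference and deposited the counts behind each contig, reads and UMIs as raw numbers. Their 3 summary tables were not used. Contigs with chain TRB and V call TRBV31 were compared with all other TRB contigs of the same library, by share with an exact (Clopper-Pearson) 95% interval, by mean with a normal interval over chains, or by median with an order-statistic interval. Intervals that did not overlap were called apart. Genes were compared where they had at least 1% of chains in both libraries. UMIs limit repeat counting of a transcript, and intervals cover counting error only, not mice or preparations. Droplets with 2 cells were not removed. Germline V and J bases were counted as the longest exact match from each CDR3 end, with segments from the GENCODE M21 annotation on the RefSeq GRCm38.p6 genome; TRBV10 was left out of it, having no match. Recombination signals were searched within 6 bases of the annotated V end. Named genes were TRBV31, its neighbours by share, the 3 with nearest J usage, the 3 most used J and TRAV per library, D and C genes, and any segment apart in both libraries; TRBJ1-5, apart in 1 library, was named outside this rule. The members and lists were chosen with earlier results of these data known. Scripts were tested on simulated data and used Python 3.11.15, pandas 2.3.3, scipy 1.17.1 and matplotlib 3.10.9. Values were recomputed after dropping contigs below 3 UMIs, after keeping only cells whose contigs were a single TRA and a single TRB, with identical chains collapsed, without the barcodes that both libraries share, and with the most-read TRB chain of each cell. Added after the data were seen were the TRA share in cells with 1 TRB chain and within ranges of TRB UMIs.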

Additional observations from a re-analysis of the deposited data

How the results depend on the processing

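Under the 5 alternatives set at the start and those added later, 88 of 96 recomputed TRBV31 values stayed within their main interval or spread, and 8 moved beyond it. In cells with exactly 1 TRA and 1 TRB chain, the TRBV31 share of TRB chains rose to 4.69% in WT and 4.71% in Btla-/- cells and that of TRB UMIs to 5.65% and 5.22%. In the same cells the Btla-/- TRBJ2 share was 71.0% and the TRBC2 share 71.0%. With contigs of at least 3 UMIs, the share of TRBV31 chains with a TRA chain was 34.8% in WT (other chains 30.3%) and 27.2% in Btla-/- cells (20.2%). That minimum dropped TRA contigs as well, while 164 of 167 WT and 202 of 206 Btla-/- TRBV31 chains met it. The causes of the shifts in cells with exactly 1 TRA and 1 TRB chain were not tested. Of 76 comparisons with the other TRB chains, 7 turned direction, all in the TRBJ2, TRBC2 or TRBD2 share, where the main difference lay within counting error. With 1 TRA and 1 TRB chain, TRBJ2 and TRBC2 turned in both libraries (WT TRBC2 65.2% against 59.1%) and TRBD2 in WT cells (27.8% against 26.1%). With each distinct chain counted once, TRBJ2 turned in WT cells (60.4% against 60.3%), and with 1 TRB chain per cell, TRBD2 turned in Btla-/- cells (30% against 30.6%). No paired analysis was possible because each genotype was 1 library. With 167 and 206 chains, differences of a few percentage points could not be resolved.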
